A study of Drosophila melanogaster with 31 samples.

Results

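The comparison described here set brains of young Drosophila melanogaster males that had received odor and light for 45 min against brains of males of the same age that the labels give as sensory deprived (0 min). It holds 6 of the 31 RNA-seq libraries of the series, namely the 3 libraries of 5-day brains at 45 min and the 3 libraries of 5-day brains at 0 min, each set lettered A, B and C. All 6 came from wild-type OreR males that the labels place at 4 to 5 days of age. Whole brains were used, so a difference can come from any cell of the brain, and fewer cells of a type cannot be told apart from less RNA per cell. The same series holds 5-day brains at 10, 20 and 30 min (3 libraries per time) and OreR male brains of 10 and 25 days at 30 min and at 0 min (2 libraries per group). It also holds antennae of OreR and of Orco mutant males (w*; TI{TI}Orco2) with and without the stimulus, 2 libraries per group. The antennal stimulus carries the times 10, 20 and 30 min in 1 label.

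Neurons that fire respond with rapid transcription of a small set of activity-regulated genes, many of which encode transcription factors. In flies Hr38, the single member of the NR4A family of orphan nuclear receptors, and sr, a zinc finger factor related to the mammalian EGR proteins, are widely used as readouts of recent neuronal activity. The proteins made from such early transcripts act in turn on later genes, among them genes of signalling, of synapses and of metabolism.

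Levels are counts per 1000000 after normalization between libraries (CPM). Fold changes are log2 values of 45 min over 0 min from an edgeR fit, with their standard error. The 45 min libraries held 23.2, 19.8 and 48.9 M counts (A, B and C; M, 1000000 counts), and the 0 min libraries 28.0, 22.5 and 62.0 M. In 5-day brains at all times the libraries C were the deepest, with 42.2 to 62.0 M against 19.3 to 29.5 M in A and B. The files also show that kallisto was given a mean fragment length that differed between libraries: it lay at the same setting in all 45 min libraries and in 0 min C, and at a longer one in 0 min A and B. That setting is therefore partly confounded with the stimulus, and its part in the results was not tested beyond the values given with it as a term. At 0, 10 and 20 min the longer setting was that of libraries A and B and the other that of C. In 5-day brains the term therefore rests on the difference of A and B from C at those times. It cannot be told apart from that difference, so its values are not corrected for fragment length alone. The series names 2 sequencing instruments for brains, and which library ran on which is not given in the sources used here. One library of the 0 min group, A, stands apart from the other 0 min libraries in several gene sets described below, and its Hr38 level was above that of every library at 10, 20 and 30 min. It is used as labelled, and whether its flies were sensory deprived like the others cannot be told from the files. For several of the genes and lists that it bears on, fold changes are given with and without it. The labels call the libraries biological replicates and do not say how many flies each holds, so p-values measure the spread between these libraries.

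The tissue label was checked with markers of the cell types a brain dissection can hold. Neuronal markers summed to between 8966 and 12160 CPM at 45 min and between 11400 and 13580 CPM at 0 min, and glial markers to between 5517 and 5668 CPM and between 5355 and 5648 CPM. All 6 neuronal and all 8 glial markers were detected. Retinal markers (8 detected) summed to between 100.5 and 198.4 CPM at 45 min and between 148.7 and 245 CPM at 0 min. Muscle markers summed to between 126.5 and 269.7 CPM and between 68.5 and 268.5 CPM, fat body markers to between 1249 and 1877 CPM and between 1575 and 1956 CPM, and hemocyte markers to between 223 and 416.5 CPM and between 142 and 475 CPM. Midgut markers stayed between 2.15 and 11.3 CPM at 45 min and between 0.737 and 15.5 CPM at 0 min, with LysE at 0 in all 6, and testis and accessory gland markers stayed at or under 2.24 CPM. For these 8 sets the two-sided exact permutation p-values of the summed level ran from 0.2 to 0.7, where 0.1 is the smallest that 3 against 3 libraries can give, so this test cannot pass 0.05.

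No gene passed the test at 45 min. The quasi-likelihood test of edgeR put 0 of 10431 genes under an adjusted p of 0.05 (0%), with a smallest adjusted p of 0.935. Without adjustment 181 genes had a p under 0.05, of which 89 were higher (0.853% of those tested) and 92 lower (0.882%), and 5% of the genes tested would be 521.6. DESeq2 put 15 genes under the adjusted threshold and 255 under the unadjusted one. Of the 15, 13 had a log2 fold change above 10 in size. Limma on log2 TPM called 0 genes, with 150 under the unadjusted threshold. Limma with library weights called 3489, in a fit that gave 0 min B a weight of 7.10, 0 min A one of 0.475 and 0 min C one of 0.279, so that its 0 min level rested mainly on 1 library. All 3 libraries at 45 min lay above all 3 at 0 min in 539 genes (5.17%) and below them in 289 (2.77%), and 49.2% of the genes had a positive fold change. No gene below is therefore called changed, and values are given with the standard error of the edgeR fit over all 23 brain libraries.

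Leading the comparison among activity-regulated genes were Hr38, sr and CG14186, all high in the 45 min libraries and also in 1 of the 0 min libraries. Hr38 (chromosome arm 2L, 20683462 to 20714588, minus strand) stood at 171, 197 and 84.2 CPM in the 45 min libraries A, B and C, against 125, 20.4 and 13.5 CPM in the 0 min libraries A, B and C. The lowest 45 min library lay below 0 min A and above the other 0 min libraries. The fitted log2 fold change was 1.51 ± 0.76 (edgeR, unadjusted p = 0.0648, adjusted p = 0.935). Without 0 min A it was 3.15 ± 0.75 (unadjusted p = 0.000714), and the range over 17 alternative settings was 1.05 to 3.15. With the fragment length setting as a term in the fit the value was 3.09.

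sr (3R, 18090803 to 18135583) showed the same order of libraries. Its level was 109, 135 and 58.1 CPM at 45 min, against 81.2, 40.8 and 30.4 CPM at 0 min, a log2 fold change of 0.99 ± 0.46 (adjusted p = 0.935) and of 1.504 ± 0.50 without 0 min A. With the fragment length setting as a term the value was 1.71. CG14186 (3L, 20098084 to 20103827) stood at 406, 448 and 294 CPM at 45 min, against 335, 152 and 142 CPM at 0 min. Its fold change was 0.87 ± 0.32 (adjusted p = 0.935), 1.38 ± 0.29 without 0 min A and 1.29 with the fragment length setting as a term. In all 3 genes the 0 min library A reached more than the lowest 45 min library, and library C was the lowest of its group. On the scale per transcript length, TPM, the means at 45 min and at 0 min were 251 and 142 for CG14186, 46.3 and 16.6 for Hr38 and 38.7 and 19.9 for sr, so CG14186 was the most abundant of the 3.

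A second set of activity-regulated genes had smaller differences but no overlap between the groups. cbt (2L, 476446 to 479688), which encodes a zinc finger transcription factor of the KLF family, stood at 83.8, 88.6 and 104.8 CPM at 45 min, against 62.3, 61.4 and 74.9 CPM at 0 min. Its log2 fold change was 0.48 ± 0.15 (unadjusted p = 0.00507, adjusted p = 0.935), with 0.47 from libraries A and B alone and 0.48 from library C alone. The serine/threonine kinase gene meng stood at 72.0, 74.0 and 73.1 CPM at 45 min, against 60.6, 54.5 and 53.9 CPM at 0 min (0.38 ± 0.16). CG17778 stood at 71.1, 66.8 and 79.4 CPM at 45 min, against 56.6, 51.8 and 60.8 CPM at 0 min (0.36 ± 0.15). CG13055 stood at 25.3, 27.4 and 17.7 CPM at 45 min, against 17.3, 12.6 and 15.8 CPM at 0 min (0.62 ± 0.28), and here the groups were almost in contact. puc, the phosphatase that dampens JNK signalling, stood at 52.3, 59.5 and 56.8 CPM at 45 min, against 48.3, 41.8 and 49.5 CPM at 0 min (0.27 ± 0.15). Jra, the fly Jun gene, stood at 33.1, 32.2 and 32.2 CPM at 45 min, against 30.9, 27.7 and 23.6 CPM at 0 min (0.25 ± 0.20).

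**Figure D1:**
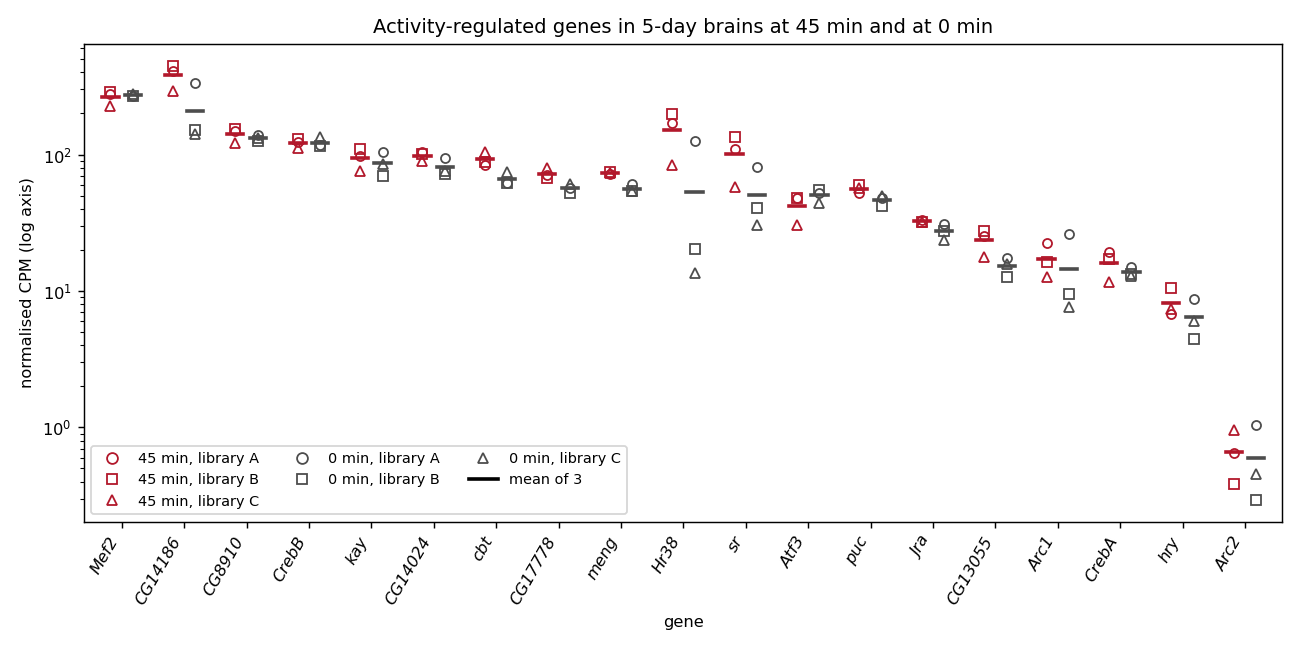
Normalised level (CPM, log axis) of the 19 activity-regulated genes tested, with the 45 min libraries left of the 0 min libraries for each gene, 1 point per library (A circle, B square, C triangle) and a bar at the mean of 3. In Hr38 the 0 min library A, at 125 CPM, stands apart from the other 0 min libraries at 20.4 and 13.5 CPM, and cbt, meng, CG17778, CG13055, puc and Jra show no overlap.

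The remaining members overlapped between the groups. CG14024 had a log2 fold change of 0.27 ± 0.17, hry, a transcriptional repressor of the hairy family, 0.35 ± 0.32, and CrebA, a bZIP factor of the secretory pathway, 0.23 ± 0.21. kay, the fly Fos gene, was at 0.13 ± 0.19, CG8910 at 0.09 ± 0.14, and the stress-responsive bZIP gene Atf3 at -0.26 ± 0.25. The capsid-forming Arc1 was at 0.25 ± 0.55 and its paralog Arc2 at 0.18 ± 0.58, with Arc2 at or under 1.04 CPM in every library. Mef2, at -0.04 ± 0.18, and CrebB, at -0.01 ± 0.19, both transcription factors that neuronal activity acts on through the protein, differed little in transcript level.

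Counted over the list, 16 of 19 activity-regulated genes had a positive log2 fold change (84.2%, against 49.2% of all genes), 6 lay above without overlap (31.6%, against 5.17%) and 0 below. At an unadjusted p under 0.05 there were 6 higher (0.853% of all genes were) and 0 lower (0.882% of all genes were). The median log2 fold change was 0.27, against -0.005 over all genes tested, and it ran from 0.20 to 0.48 over the 17 alternative settings. Without 0 min A it was 0.40 and without 0 min C 0.23. In the library medians of this list, 45 min A and B were highest (0.15 and 0.18 above each gene's mean over the 6 libraries), 0 min A (0.05) and 45 min C (0.01) came next, and 0 min C (-0.20) and 0 min B (-0.30) were lowest.

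The 45 min brains can also be set against 5-day brains at 10 min, which do not include 0 min A. Both comparisons share the 45 min libraries, and the fragment length setting differs here in the same way: 10 min A and B have the longer one and 10 min C that of the 45 min libraries. At 30 min all 3 libraries have the setting of the 45 min libraries. Between 45 min and 10 min no gene of 10431 passed the edgeR test (0 genes), 189 had a p under 0.05 without adjustment, DESeq2 called 3 and limma with library weights 8. All 45 min libraries lay above all 10 min libraries in 2.29% of the genes and below them in 2.72%. Of the 19 activity-regulated genes 9 lay above, namely Hr38, sr, CG14186, cbt, CG17778, meng, puc, Jra and CrebB, and 0 below. Hr38 stood at 171, 197 and 84.2 CPM at 45 min, against 35.0, 24.3 and 13.6 CPM at 10 min, a log2 fold change of 2.64 ± 0.79 (unadjusted p = 0.00425, adjusted p = 1). CG14186 stood at 181, 192 and 167.5 CPM at 10 min, which put 45 min at 1.09 ± 0.32 above it (unadjusted p = 0.0034). sr stood at 45.8, 50.2 and 30.5 CPM at 10 min (1.26 ± 0.46) and CG17778 at 46.0, 51.7 and 60.3 CPM (0.46 ± 0.15).

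Over the whole series of times, Hr38 was highest at 45 min. It stood at 63.3, 88.3 and 16.6 CPM at 20 min and at 105.5, 71.7 and 23.2 CPM at 30 min, so that every library at 20 and 30 min lay below 125 CPM, the level of 0 min A. At each time the library C had the lowest Hr38. cbt followed another course: it stood at 72.5, 72.1 and 64.8 CPM at 10 min, at 102.4, 107.2 and 101.6 CPM at 20 min and at 85.8, 101.8 and 91.7 CPM at 30 min. Its log2 difference between 45 and 30 min was -0.01 ± 0.15. Neither course was tested as a whole.

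**Figure D2:**
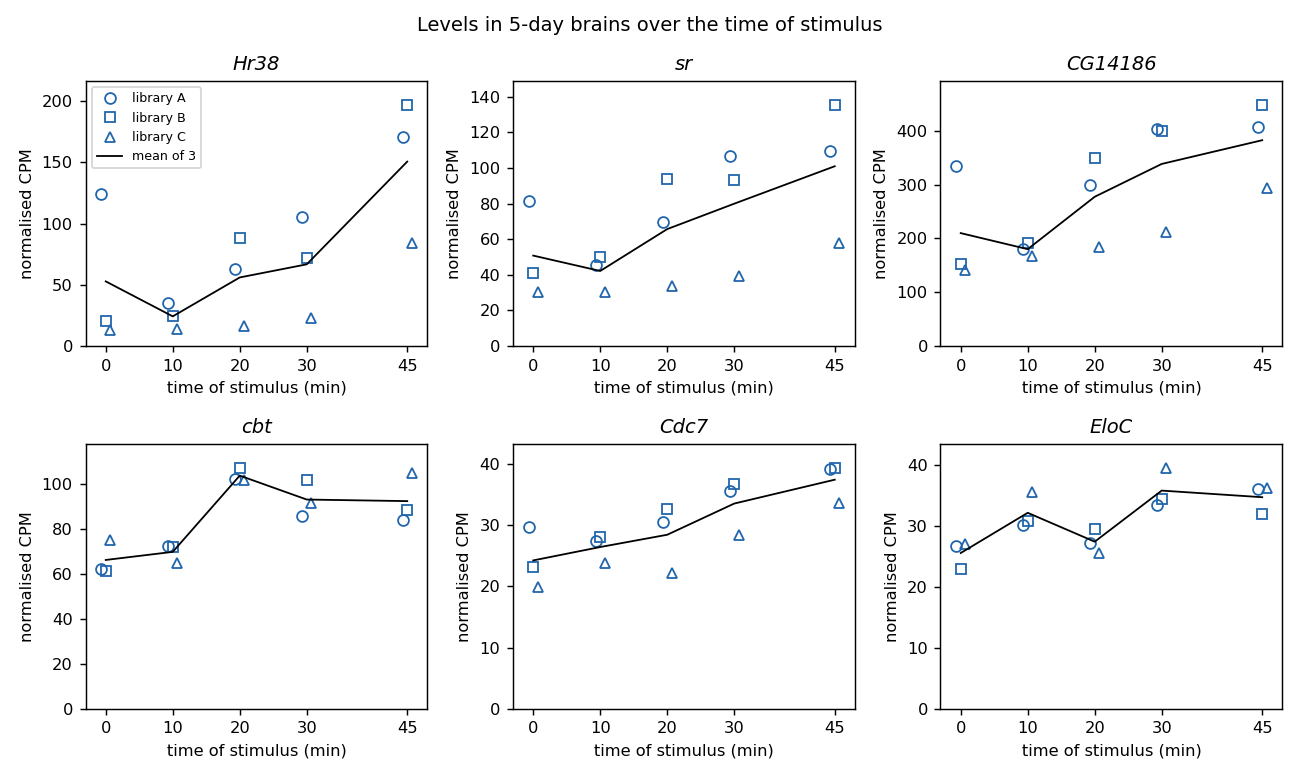
Normalised level (CPM, axes from 0) of Hr38, sr, CG14186, cbt, Cdc7 and EloC in 5-day brains against the time of stimulus in minutes, 1 point per library and a line through the means of 3. Hr38 reaches 171, 197 and 84.2 CPM at 45 min, with 0 min A at 125 CPM, while cbt is already at 101.6 to 107.2 CPM at 20 min.

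Comparisons that share no library with the 5-day brains gave a mixed picture. For cbt the log2 fold change of 30 min over 0 min was 0.46 ± 0.18 in 10-day brains (unadjusted p = 0.0213) and 0.59 in 25-day brains (unadjusted p = 0.00479), and that of the stimulus in antennae was 0.39 in OreR and 0.68 in the Orco mutant. Hr38 stood at 0.54 ± 0.92 at 10 days and 0.10 at 25 days. CG14186 stood at 0.63 ± 0.39 and 0.58, and sr at 0.60 ± 0.56 and 0.46. Of the 19 activity-regulated genes, 15 were positive at 10 days (45.1% of all genes were) and 12 at 25 days (49.2% of all genes). At an unadjusted p under 0.05 there were 2 of the 19 at 10 days and 1 at 25 days, against 335 and 75 of all 10431 genes. None of the 19 passed with adjustment.

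Outside the activity-regulated list, the genes without overlap and with the smallest p-values at 45 min were Cdc7 and EloC among those higher and CG44195 among those lower. Cdc7 (X, 6654541 to 6659709), which encodes the catalytic kinase that fires replication origins, stood at 39.2, 39.3 and 33.6 CPM at 45 min, against 29.6, 23.1 and 20.0 CPM at 0 min. Its log2 fold change was 0.63 ± 0.16 (unadjusted p = 0.00139, adjusted p = 0.935), 0.58 from libraries A and B alone, 0.74 from library C alone and 0.89 with the fragment length setting as a term. Over the times it stood at 27.4, 28.1 and 23.7 CPM at 10 min, 30.4, 32.6 and 22.1 CPM at 20 min and 35.5, 36.7 and 28.3 CPM at 30 min, with library C lowest each time. It was at 0.36 ± 0.20 in 10-day brains, 0.27 in 25-day brains, 0.74 in OreR antennae (unadjusted p = 0.000228) and 0.54 in antennae of the Orco mutant (unadjusted p = 0.0013).

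EloC (2R, 19445085 to 19446286), the elongin C gene, whose product serves both transcription elongation and ubiquitin ligases, stood at 36.1, 31.9 and 36.3 CPM at 45 min, against 26.7, 22.99 and 27.1 CPM at 0 min (0.44 ± 0.13, adjusted p = 0.935). It was at -0.19 ± 0.16 in 10-day brains and -0.03 in 25-day brains. COX7B, a cytochrome c oxidase subunit gene, stood at 46.4, 45.8 and 52.5 CPM at 45 min, against 26.3, 22.0 and 30.1 CPM at 0 min (0.88 ± 0.29). In libraries A, B and C it stood at 29.7, 28.7 and 57.95 CPM at 10 min and 28.8, 29.7 and 33.6 CPM at 20 min. At 30 min it stood at 52.4, 51.2 and 49.5 CPM. At 0, 10 and 20 min the longer fragment length setting was that of A and B. Over the alternative settings COX7B ran from 0.38 to 1.03, with 0.55 when the fragment length setting was a term, while Cdc7 ran from 0.50 to 0.89. IscU, the scaffold gene of iron-sulfur cluster assembly, stood at 257, 266 and 254 CPM at 45 min, against 231, 187 and 203 CPM at 0 min (0.32 ± 0.12).

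Trissin, a neuropeptide gene, was even within each group, at 49.9, 49.8 and 47.5 CPM at 45 min, against 33.4, 38.3 and 33.9 CPM at 0 min (0.48 ± 0.18). Lac, which encodes the septate junction protein Lachesin, stood at 30.4, 30.2 and 32.8 CPM at 45 min, against 25.9, 24.2 and 23.9 CPM at 0 min (0.33 ± 0.11). CG33502 and Cubn2 had the largest fold changes of this set of 12, and Cubn2 was the lowest in level. CG33502 stood at 31.2, 39.6 and 21.3 CPM at 45 min, against 7.62, 3.44 and 2.31 CPM at 0 min (2.79 ± 0.98), but 30 min C had 24.1 CPM and 20 min B 3.52 CPM, so it also varied widely at other times. Cubn2, named after the endocytic receptor cubilin, stood at 2.92, 5.95 and 1.98 CPM at 45 min, against 1.12, 1.23 and 1.47 CPM at 0 min (1.49 ± 0.45). The set is completed by CG5377 (0.53 ± 0.16), CG7772 (0.50 ± 0.16) and CG7218 (0.32 ± 0.11).

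Lower at 45 min in every library was CG44195 (3L, 7658409 to 7695654), at 156, 142 and 117.5 CPM, against 197.5, 240 and 240.5 CPM at 0 min. Its log2 fold change was -0.71 ± 0.19 (unadjusted p = 0.00204, adjusted p = 0.935), and it was at 0.45 ± 0.24 in 10-day brains and -0.32 in 25-day brains. CheB42c, of the CheB family of chemosensory proteins, stood at 3.38, 3.17 and 4.81 CPM at 45 min, against 5.05, 15.9 and 16.6 CPM at 0 min (-1.72 ± 0.61). Plp, the fly pericentrin of the centrosome, stood at 201, 198.5 and 178 CPM at 45 min, against 218, 262 and 234 CPM at 0 min (-0.31 ± 0.10). btv, a dynein heavy chain gene of sensory cilia, stood at 5.89, 4.97 and 4.25 CPM at 45 min, against 6.06, 8.40 and 6.83 CPM at 0 min (-0.50 ± 0.18).

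Smaller differences in the same direction were found in Nepl17, a gene of the neprilysin family (-0.39 ± 0.13), Ir62a, of the ionotropic receptor family (-0.42 ± 0.16), mop, a phosphatase-family gene of endosomal sorting (-0.26 ± 0.09), and Gnf1, the large subunit of the clamp loader of DNA replication (-0.25 ± 0.09). CG15535 was at -0.52 ± 0.17 and CG10383 at -0.70 ± 0.24, the last with -0.94 from libraries A and B and only -0.09 from library C. lcs had 0 counts in all 45 min libraries, against 37.6, 0.0491 and 0.067 CPM at 0 min, so its place among the leading genes rests on 0 min A. Its log2 fold change was -11.94 ± 4.31, and -4.35 ± 4.98 without 0 min A. None of the 24 leading genes of both directions took the opposite sign under the alternative settings, of which there were 17 for each gene other than lcs and 16 for lcs. These genes were picked for no overlap in the same libraries, so a change of sign was unlikely and the count does not test their stability. Of the 12 higher genes 3 were positive at 10 days and 7 at 25 days, and of the 12 lower genes 5 were negative at 10 days and 10 at 25 days. Of all genes 45.1% were positive at 10 days and 49.2% at 25 days. In antennae 6 of the 11 higher genes tested were positive in OreR and 6 in the Orco mutant. Of the 12 lower genes 7 were negative in OreR antennae and 5 in the mutant. Of all genes 47.98% were positive in OreR antennae and 54.55% in the mutant.

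**Figure D3:**
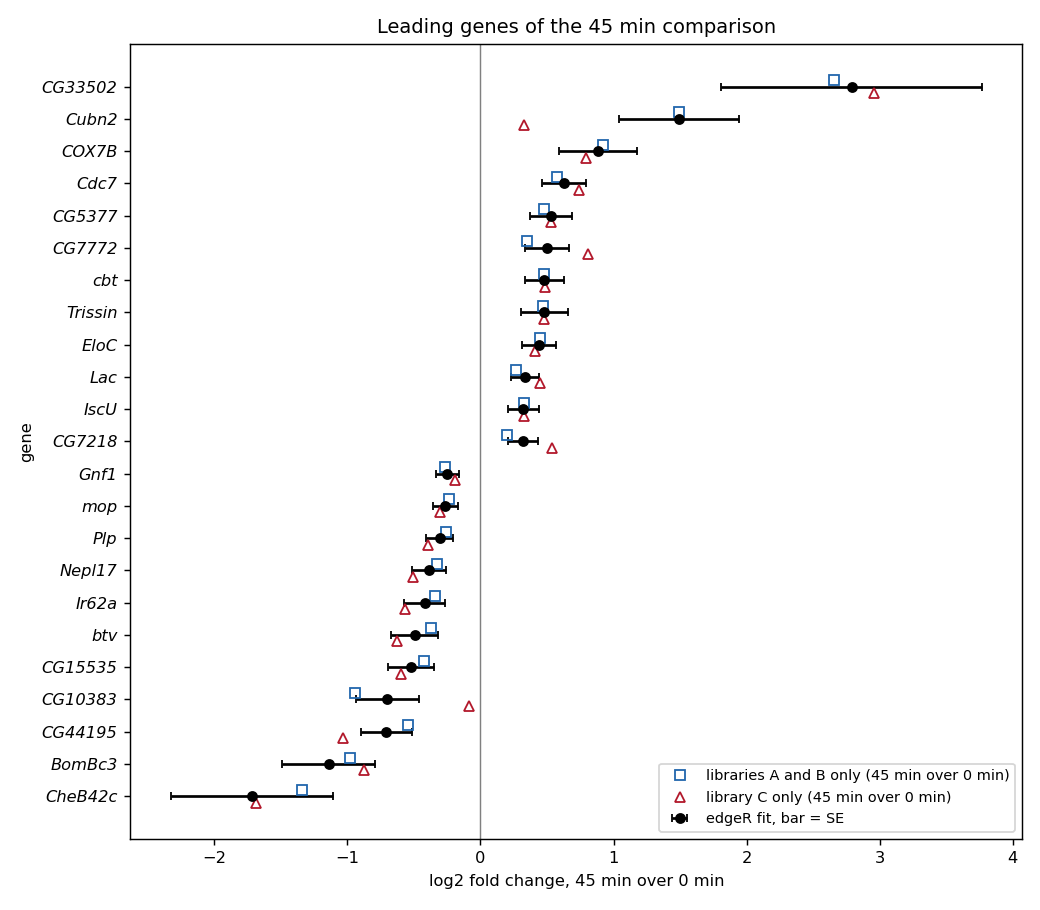
Log2 fold change of 45 min over 0 min for 23 of the 24 leading genes (lcs, with 0 counts at 45 min, is not plotted), from the edgeR fit with its standard error (black), from libraries A and B alone (square) and from library C alone (triangle). cbt and Trissin give nearly the same value in all 3, while CG10383 has -0.94 in libraries A and B and -0.09 in library C.

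Gene groups of translation and energy metabolism were higher at 45 min on balance, with low values in 2 of the 0 min libraries. Of the 80 cytosolic ribosomal protein genes tested, 73 had a positive fold change, 20 lay above without overlap (25%, against 5.17% of all genes) and 0 below, with a median of 0.62. RpL29 stood at 34.9, 38.7 and 42.6 CPM at 45 min, against 13.4, 9.63 and 10.8 CPM at 0 min (1.78 ± 0.74, and 0.89 with the fragment length setting as a term). In libraries A, B and C it stood at 9.86, 9.01 and 40.9 CPM at 10 min and 10.7, 9.67 and 23.9 CPM at 20 min. At 30 min it stood at 32.9, 31.7 and 43.9 CPM. RpS27 stood at 165, 163 and 148 CPM at 45 min, against 145, 81.9 and 83.2 CPM at 0 min (0.62 ± 0.25). The library medians of the list were 0.42, 0.36 and 0.27 in the 45 min libraries, against 0.36, -0.41 and -1.10 in 0 min A, B and C. 0 min A thus lay within the 45 min range and 0 min C far below it. Without 0 min A the median fold change was 1.08 and without 0 min C 0.35, and with the fragment length setting as a term it was 1.05. Against the 10 min brains, 73 of these 80 genes were positive (5616 of all 10431 were), with a median of 0.11. Of the 80, 2 lay above without overlap, against 2.29% of all genes.

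The nuclear genes of oxidative phosphorylation, which encode subunits of the respiratory chain, had 61 of 68 positive, 19 above without overlap (27.9%) and a median of 0.51. Examples are Cyt-c-p, the somatic cytochrome c gene, at 202, 194 and 257 CPM at 45 min, against 180, 137 and 137 CPM at 0 min (0.52 ± 0.24), and the complex I gene ND-B14 (0.71 ± 0.33). Of 32 proteasome genes 31 were positive and 11 lay above (34.4%), with a median of 0.33, led by Prosalpha5 (0.50 ± 0.25) and Prosbeta1 (0.79 ± 0.44). Of 72 mitochondrial ribosomal protein genes 63 were positive and 15 lay above (20.8%), with a median of 0.32, led by mRpL55 (0.96 ± 0.48). With the fragment length setting as a term the medians were 0.65 for oxidative phosphorylation, 0.50 for the proteasome and 0.21 for mitochondrial ribosomal proteins, and mRpL55 stood at 0.20. This last list was highest in 45 min C (library median 0.42), and with libraries A and B alone its median was 0.09, against 0.18 for the proteasome. Against the 10 min brains these 3 lists had medians of 0.003, 0.05 and 0.06, with 35 of 68, 24 of 32 and 51 of 72 genes positive. Each had 1 gene above without overlap, against 2.29% of all genes. The mitochondrially encoded subunits had no such shift (5 of 11 positive, median -0.11), with mt:ND2 at -0.64 ± 0.55, mt:ND4 at 0.43 ± 0.53 and mt:CoIII at -0.24 ± 0.35, and their median was 0.26 without 0 min C and 0.34 with libraries A and B alone. Glycolysis genes had 19 of 23 positive and a median of 0.25, with 0 above without overlap (5.17% of all genes were). Only Treh lay below (4.35%, against 2.77% of all genes). The glycolysis median was 0.44 without 0 min A, 0.0881 without 0 min C and 0.52 with the fragment length setting as a term. 0 min A (library median 0.22) lay within the range of the 45 min libraries (0.05 to 0.24). Against the 10 min brains only 2 of the 23 glycolysis genes were positive, with a median of -0.04. Treh, the trehalase gene, stood at 519, 498 and 538 CPM at 45 min, against 649, 696 and 675 CPM at 0 min (-0.38 ± 0.15).

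These lists hold short transcripts, and transcript length moved with the fold change over all genes. The median transcript length was 754 bases for cytosolic ribosomal proteins, 759 for oxidative phosphorylation, 746 for mitochondrial ribosomal proteins and 1300 for the proteasome, against 1970 for all genes tested. Among the 1661 genes with transcripts under 1000 bases, 12.9% lay above without overlap and 1.26% below, with a median fold change of 0.11. Among the 1454 genes of 4000 to 8000 bases, 0.344% lay above and 6.67% below, with a median of -0.08. Across the 10431 genes, the deviation of a library from each gene's mean had a Spearman correlation with transcript length of 0.14, 0.16 and -0.57 in 45 min A, B and C, against 0.19, 0.41 and -0.09 in 0 min A, B and C. Genes are not independent replicates, and the part of transcript length in the list medians was not tested.

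**Figure D4:**
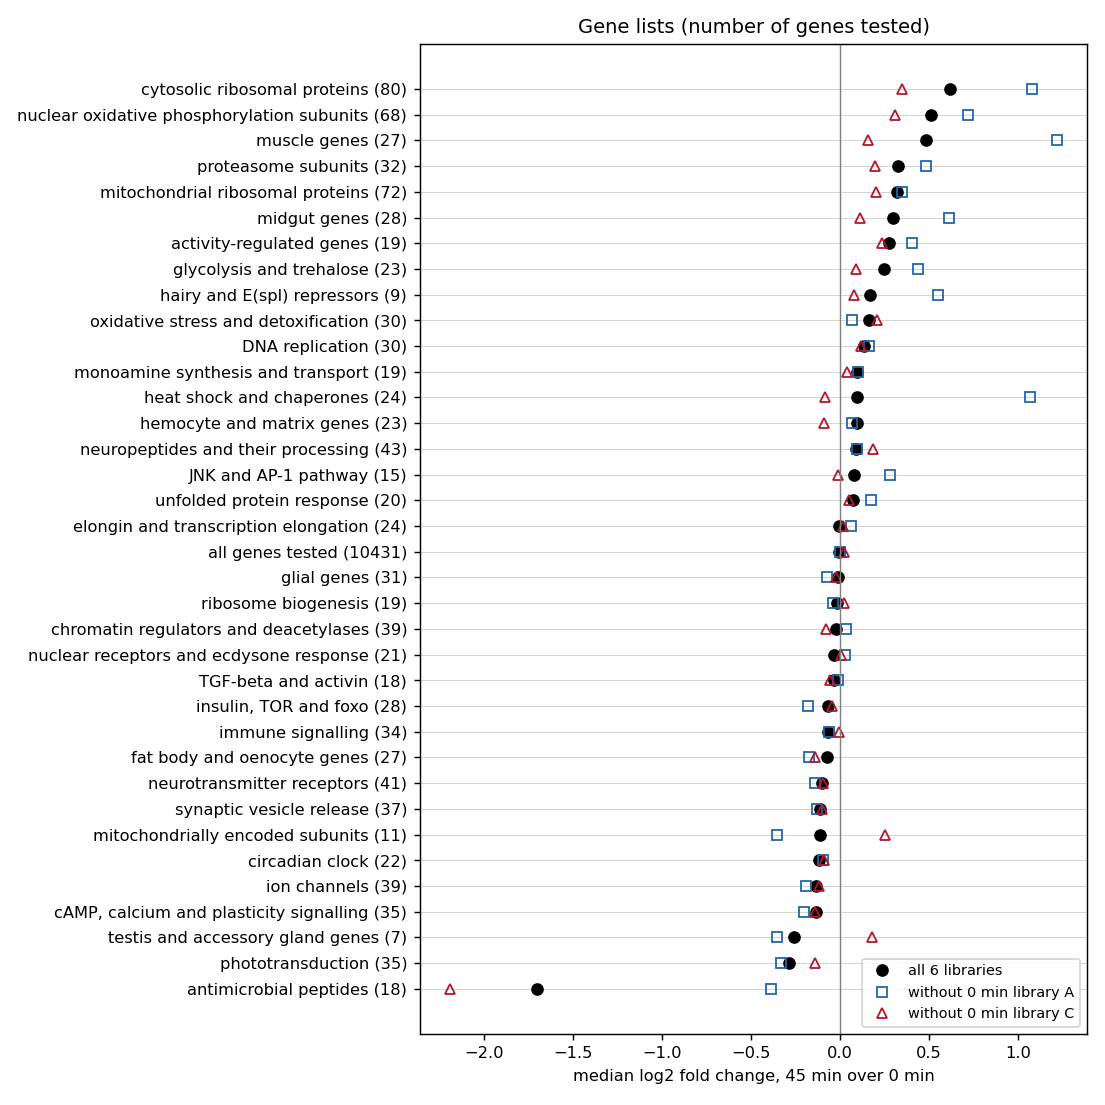
Median log2 fold change of 45 min over 0 min for the 35 gene lists and for all genes tested, with the number of genes in parentheses, from all libraries (circle), without 0 min A (square) and without 0 min C (triangle). The cytosolic ribosomal protein list moves between 0.35 and 1.08 and the heat shock list between -0.09 and 1.07 with the library left out, while the activity-regulated list stays between 0.23 and 0.40.

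Neuronal lists were slightly lower at 45 min, with the lowest values in 45 min C. The order turned for vesicle release without 45 min C (median 0.02) and for ion channels with the fragment length setting as a term (0.08). Of 37 synaptic vesicle release genes 5 were positive (median -0.11), of 39 ion channel genes 11 (-0.13), of 41 neurotransmitter receptor genes 9 (-0.10) and of 35 genes of cAMP, calcium and plasticity signalling 6 (-0.14). None of the vesicle, channel and receptor genes differed without overlap, while 5.17% of all genes lay above and 2.77% below. In the plasticity list only scb, an integrin alpha gene, lay below (2.86%, against 2.77% of all genes). Its level was 17.0, 16.1 and 16.3 CPM at 45 min, against 19.7, 18.1 and 19.7 CPM at 0 min (-0.22 ± 0.17). With libraries A and B alone the medians were -0.02, -0.03, -0.0002 and -0.03. unc-13, a priming factor of synaptic vesicles, was at -0.37 ± 0.24, the calcium channel gene cac at -0.28 ± 0.25, the potassium channel gene KCNQ at 0.23 ± 0.17 and CaMKII at -0.30 ± 0.27. Without 0 min A the last pair were at 0.43 and -0.49, and without 0 min C at 0.13 and -0.14. These lists hold long transcripts, with medians from 4290 to 5060 bases. In the range of transcript lengths that holds these medians, 0.344% of the genes lay above without overlap and 6.67% below.

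Neuropeptide genes, with a median transcript length of 1030 bases, were slightly higher. Of 43 tested, 29 were positive and 7 lay above without overlap (16.3%, against 5.17% of all genes), with 0 below and a median of 0.09. The share above was 12.9% among genes with transcripts under 1000 bases and 5.82% among those of 1000 to 2000 bases. The list median was -0.09 from libraries C alone, 0.18 from A and B, and 0.05 with the fragment length setting as a term. It was -0.185 in 10-day brains and 0.005 in 25-day brains. Besides Trissin, named above, the 7 are Pdf, NPF, Tk, Lk, Crz and Orcokinin, of which only Trissin and Pdf were named by the rule and the others were chosen after their values were seen. Pdf, the peptide of the ventral clock neurons, stood at 35.6, 29.9 and 33.5 CPM at 45 min, against 19.3, 19.3 and 20.1 CPM at 0 min (0.75 ± 0.54). The 3 values of Pdf at 0 min lie within 1 CPM of each other, and its standard error is that of the fit over all 23 brain libraries. Orcokinin stood at 81.7, 81.3 and 78.7 CPM at 45 min, against 56.1, 58.5 and 76.6 CPM at 0 min (0.34 ± 0.23), and Crz, the corazonin gene, at 48.5, 50.5 and 54.2 CPM, against 43.1, 36.9 and 42.0 CPM (0.33 ± 0.24). Ilp5, an insulin-like peptide of the median neurosecretory cells, stood at 9.22, 13.4 and 5.56 CPM at 45 min, against 7.43, 4.91 and 3.07 CPM at 0 min (0.87 ± 0.35), and the myoinhibitory peptide gene Mip at 109, 129 and 101 CPM, against 102, 78.0 and 67.8 CPM (0.45 ± 0.20).

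Antimicrobial peptide genes had a median log2 fold change of -1.70, of -0.39 without 0 min A and of -0.58 with the fragment length setting as a term, with the highest values in 0 min A and B (6 of 18 positive). From libraries C alone the list median was 0.153 and from A and B -0.849. It was 0.335 in 10-day brains and -0.833 in 25-day brains. AttB, an attacin gene, stood at 0.371, 0.109 and 0.205 CPM at 45 min, against 1.003, 7.17 and 0.302 CPM at 0 min (-3.59 ± 0.94, adjusted p = 0.935). AttC stood at 0.278, 0.382 and 0.392 CPM at 45 min, against 4.35, 5.50 and 0.251 CPM at 0 min (-3.23 ± 0.99). In both genes 0 min C lay near the level of the 45 min libraries. With the fragment length setting as a term AttB stood at -1.78 and AttC at -1.13. AttA and AttB are near-identical copies whose reads the counting could split. BomBc3, a bomanin of the Toll pathway, was the 1 member below without overlap (5.56%, against 2.77% of all genes). It stood at 1.34, 1.64 and 2.05 CPM at 45 min, against 2.71, 4.27 and 4.19 CPM at 0 min (-1.14 ± 0.35). Drs, the drosomycin gene and a target of the same pathway, was the 1 member above (5.56%, against 5.17% of all genes). It stood at 1.25, 2.95 and 7.04 CPM at 45 min, against 0.557, 0.491 and 0.653 CPM at 0 min (2.72 ± 1.24), and was chosen after its values were seen. The serpin gene Spn88Eb, which had the smallest p-value of all list members, stood at 0.556, 0.655 and 0.504 CPM at 45 min, against 3.86, 13.1 and 0.62 CPM at 0 min (-3.35 ± 0.84, unadjusted p = 0.00101), and at -1.73 with the fragment length setting as a term. AttB and Spn88Eb are the named genes among the 15 that DESeq2 called.

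Heat shock genes were high in 1 library of each group. Their library medians were -0.23, 0.74 and -0.22 in 45 min A, B and C, against 0.69, -0.52 and -0.90 in 0 min A, B and C. Hsp70Ab, 1 of several near-identical genes among which reads may be split, stood at 18.5, 75.8 and 8.19 CPM at 45 min, against 349, 20.4 and 15.6 CPM at 0 min (-1.91 ± 1.36). Hsp83, the fly Hsp90, stood at 866, 1024 and 625 CPM at 45 min, against 1236, 941 and 812.5 CPM at 0 min (-0.25 ± 0.18). Of 24 heat shock genes 15 were positive, and the list median was 0.09 with all libraries, 1.07 without 0 min A, -0.39 without 45 min B and 0.66 with the fragment length setting as a term. The same 0 min library A was also high in muscle genes (23 of 27 positive, median 0.49, 1.22 without 0 min A and 1.7 with the fragment length setting as a term, with library medians of 0.29, 0.73 and 0.16 at 45 min, against 0.79, -0.57 and -1.06 at 0 min) and, as given above, in Hr38 and sr. The part of this library's state in the activity-regulated values was not tested.

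**Figure D5:**
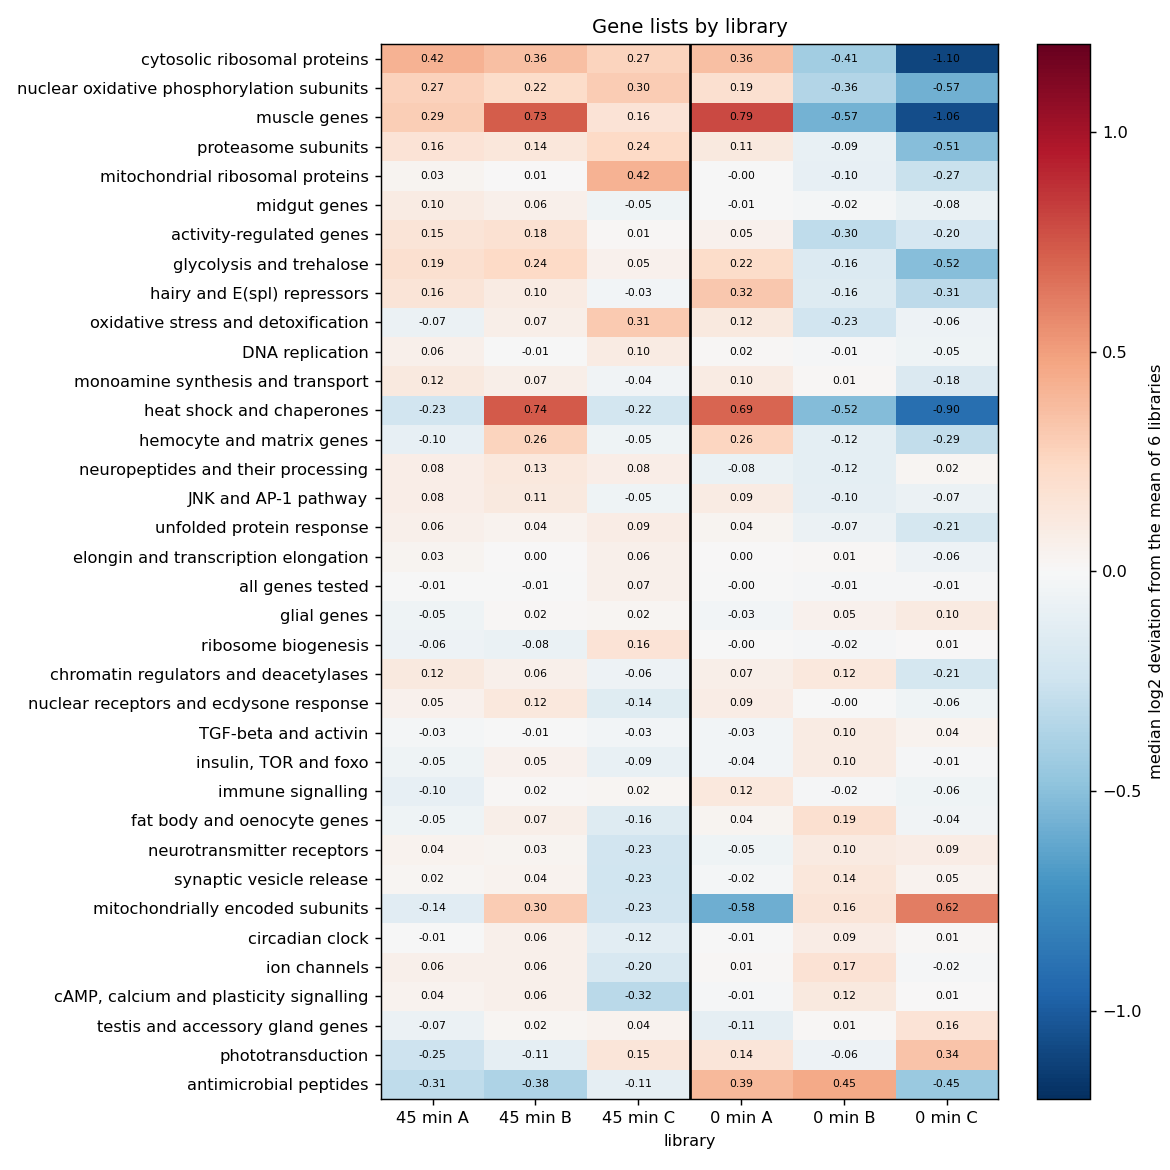
Median over each list of the log2 deviation of a library from the gene's mean over the 6 libraries, with the 45 min libraries on the left of the line and the 0 min libraries on the right. In the cytosolic ribosomal protein list 0 min A (0.36) is like the 45 min libraries (0.27 to 0.42) and 0 min C is at -1.10, and in the heat shock list 45 min B (0.74) and 0 min A (0.69) stand above the rest.

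In the phototransduction list 6 of 35 genes were positive (17.1%, against 49.2% of all genes). The median was -0.29, -0.33 without 0 min A, -0.14 without 0 min C and -0.45 with the fragment length setting as a term. The library medians were -0.25, -0.112 and 0.149 in 45 min A, B and C, against 0.143, -0.0631 and 0.342 in 0 min A, B and C. In these medians 45 min C thus lay above 0 min A and B. Without overlap, chp and Rh3 lay below (5.71%, against 2.77% of all genes). Rh3, a rhodopsin of ultraviolet-sensitive photoreceptors, stood at 2.41, 3.33 and 3.60 CPM at 45 min, against 5.83, 5.01 and 6.20 CPM at 0 min (-0.86 ± 0.52), and chp, chaoptin of the photoreceptor membrane, at 4.59, 6.61 and 9.76 CPM, against 12.4, 10.1 and 12.95 CPM (-0.75 ± 0.41). Both are markers of the retina, whose summed level is given above. The list median was -0.24 in 10-day brains and -0.36 in 25-day brains.

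In the list of chromatin regulators 17 of 39 genes were positive (median -0.02, and 0.21 with the fragment length setting as a term), with 3 above without overlap (7.69%, against 5.17% of all genes) and 2 below (5.13%, against 2.77%). HDAC1 stood at 43.7, 43.5 and 43.2 CPM at 45 min, against 33.0, 37.0 and 34.7 CPM at 0 min (0.32 ± 0.13, adjusted p = 0.935), and HDAC3 at 9.36, 9.17 and 10.4 CPM, against 8.06, 7.47 and 7.34 CPM (0.34 ± 0.22). In the DNA replication list, which holds Cdc7, 20 of 30 were positive (median 0.13). Of these 30, 4 lay above (13.3%, against 5.17% of all genes) and 3 below (10%, against 2.77%). Among those above was geminin, an inhibitor of origin licensing (0.58 ± 0.31). Of 30 genes of oxidative stress and detoxification 18 were positive (median 0.16), 4 lay above (13.3%, against 5.17%) and 1 below (3.33%, against 2.77%). Cyp6a2, a cytochrome P450 gene, stood at 11.0, 13.4 and 17.1 CPM at 45 min, against 7.84, 5.50 and 5.23 CPM at 0 min (1.16 ± 0.45), and the metallothionein gene MtnA at 129, 132 and 175 CPM, against 129, 85.1 and 105 CPM (0.45 ± 0.21). Of 31 glial genes 15 were positive (median -0.01) and 3 lay above (9.68%, against 5.17%). Among the 3 were CG6126 (0.61 ± 0.28) and loco, a regulator of G protein signalling of glia (0.57 ± 0.29).

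The circadian clock list (8 of 22 positive, median -0.12) was as far below the median of all genes as the neuronal lists, and its median was -0.01 with the fragment length setting as a term. The insulin, TOR and foxo list (11 of 28, -0.07), the TGF-beta and activin list (8 of 18, -0.04) and the list of nuclear receptors and ecdysone response (9 of 21, -0.03) had medians from -0.07 to -0.03, and the sign of the last pair of medians depended on the setting. daw, an activin-type ligand gene, stood at 6.67, 7.81 and 8.40 CPM at 45 min, against 6.98, 5.45 and 5.08 CPM at 0 min (0.39 ± 0.17). The JNK and AP-1 list had 10 of 15 positive (median 0.08), the hairy and E(spl) list 7 of 9 (0.17), the unfolded protein response list 14 of 20 (0.08) and the monoamine list 13 of 19 (0.10). Without 0 min A the JNK and AP-1 median was 0.28 and the hairy and E(spl) median 0.55, and without 0 min C they were -0.00999 and 0.0802. The lists of immune signalling (15 of 34, -0.07), ribosome biogenesis (9 of 19, -0.02), elongins and elongation (12 of 24, -0.003), fat body (11 of 27, -0.07), hemocytes (13 of 23, 0.09), midgut (16 of 28, 0.30) and testis (2 of 7, -0.26) gave no more members at an unadjusted p under 0.05 than 1 each. At that threshold 0.853% of all genes were higher and 0.882% lower. Midgut markers summed to at most 15.5 CPM in any of the 6 libraries. The medians of these 7 lists, of the glial list and of the JNK and AP-1 list took the other sign in at least 1 of the alternative settings.

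Single libraries also carried high levels of genes that were low elsewhere. In 45 min A, 14 genes stood at 10 CPM or more and at least 8 times above the highest of the other 5 libraries, and together they reached 13010 CPM. Among them CG34220 stood at 6946 CPM and the mucin gene Muc68D at 2393 CPM in 45 min A, against at most 5.42 and 1.08 CPM elsewhere. In 0 min A, 11 such genes reached 750 CPM together, with CG16826 at 212 CPM against at most 0.452 CPM. No gene met this rule in the other 4 libraries. These genes gave fitted fold changes of any size (10.4 for Muc68D, -9.32 for CG16826) that rest on 1 library. Without 0 min A the value of CG16826 was -1.65 ± 3.16.

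Between 45 min and 30 min, the nearest time, 0 genes passed the edgeR test, 48 of 10431 had a p under 0.05 without adjustment, DESeq2 called 2 and limma with library weights 0. All 45 min libraries lay above all 30 min libraries in 1.47% of the genes and below in 1.87%. Of the activity-regulated genes only CG17778 lay above, at 71.1, 66.8 and 79.4 CPM at 45 min, against 65.5, 61.7 and 66.1 CPM at 30 min (0.17 ± 0.15). Cubn2 had the smallest p-value, at 2.92, 5.95 and 1.98 CPM at 45 min, against 1.18, 0.818 and 1.41 CPM at 30 min (1.66 ± 0.46, unadjusted p = 0.00217, adjusted p = 1). Cyp4e3, a cytochrome P450 gene, stood at 9.27, 11.7 and 9.68 CPM at 45 min, against 1.52, 0.546 and 4.72 CPM at 30 min (2.14 ± 0.98), but at 11.2, 14.6 and 30.6 CPM at 0 min. Cad96Ca (0.63 ± 0.23), CG12398 (0.56 ± 0.22) and CycB3 (0.40 ± 0.22) were also above. Below were the stress-induced TotA (-3.53 ± 1.199, with 38.2 CPM in 30 min C), CG44014 (-1.31 ± 0.39), CG30046 (-0.85 ± 0.33), the gustatory receptor gene Gr61a (-0.58 ± 0.23) and CG16826 (with 50.9 CPM in 30 min C).

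Against 10 min, the genes above with the smallest p-values were CG14186, Hr38, Cubn2 (1.496 ± 0.45), Cdc7 (0.50 ± 0.16) and CG17778. Below were Sema5c, a semaphorin gene, at 10.4, 13.4 and 13.02 CPM at 45 min, against 15.2, 16.9 and 20.0 CPM at 10 min (-0.50 ± 0.16), CG6067 (-1.33 ± 0.42) and dsb (-1.25 ± 0.42). CG10570 and CG42502 share their position in the annotation and had identical values (-2.70 ± 0.85), with 29.2 CPM in 10 min A.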

How the data were processed

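RNA was extracted with Trizol and made into libraries with the Illumina TruSeq RNA kit v2, per the labels' protocols. Each deposited file gives, per the file headers, an estimated count and a TPM value per transcript (30490 transcripts). CASAVA 1.7, kallisto 0.43.1 and edgeR 3.18.1 are named in the submitters' processing notes, as are the builds dm6 and GRCm38. No source used here gives the strand setting or transcript release, so reads of overlapping genes and near-identical copies cannot be told apart.

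Gene symbols and all coordinates come from Ensembl's BDGP6.54 annotation, in which 30255 transcripts of 13821 genes were found. The unmatched transcripts held 0.396% to 0.514% of the counts. Transcript counts were added up by gene and then rounded. One fit of edgeR 4.0.16 in R 4.3.3 (TMM, filterByExpr, robust quasi-likelihood F-test) took in all 23 brain libraries, gave each group its own coefficient, used no covariate and tested 10431 genes with Benjamini-Hochberg adjustment at a threshold of 0.05. Antennal libraries had a fit of their own. DESeq2 1.42.0 and limma 3.58.1 (on log2 of TPM + 1, and on weighted counts) were alternatives. The fits with libraries A and B alone and with a term for libraries C were chosen after seeing the data. Ratios of single genes from libraries A and B or C alone, and list medians by library, used log2 of CPM + 0.5. Exact permutation tests were two-sided.

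The 35 lists, the comparison and the rule for named genes were chosen with earlier results of these data known. Since no gene passed, the rule took 12 genes per direction, those of smallest p whose groups did not overlap and whose mean log2 CPM was 1 or more. It added all tested activity-regulated genes, 3 genes of smallest p from each other list, and 5 per direction against 30 and 10 min.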

Additional observations from a re-analysis of the deposited data

How the results depend on the processing

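The count of 0 genes called at 45 min held in 14 of 17 alternative settings, and DESeq2 called 15, limma with library weights 3489 and the fit with libraries A and B alone 3 (CG13364, CG41128 and RpL29). Against 30 min DESeq2 called 2, and against 10 min DESeq2 called 3, limma with library weights 8 and libraries A and B alone 3. Genes at an unadjusted p under 0.05, 181 as reported, were 610 with the 15 libraries of 5-day brains, 1936 with a replicate block, 1930 with the fragment length setting as a term, 4591 with library weights, 706 with libraries A and B alone and 346 with a term for libraries C. Leaving out 1 library gave 109 (without 0 min B) to 602 (without 0 min A). The causes were not tested. The replicate block called 0 genes, and the letters were not taken as pairs, since the correlation of deviations was 0.20 for A, 0.04 for B and 0.54 for C. Of 134 named genes, 11 took the opposite sign in some setting. Leaving out 1 library, log2 fold changes ran from -1.07 to 4.23 for Lsp1gamma, -3.27 to 0.92 for Hsp70Ab, -1.03 to 0.0999 for mt:ND2, -0.79 to 0.0471 for gdl, -0.16 to 0.84 for mt:ND4, -0.49 to 0.0528 for mt:CoIII, -0.00362 to 0.28 for kay, -0.0532 to 1.01 for Arc1, -0.20 to 0.82 for Arc2, -0.11 to 0.0567 for Mef2 and -0.0554 to 0.0678 for CrebB. With library weights the value was 0.38 for Hsp70Ab, 0.0558 for Mef2 and 0.113 for CrebB, with libraries A and B alone 0.14 for mt:CoIII, -0.38 for Arc2, 0.0875 for Mef2 and 0.14 for CrebB, and with the fragment length term 0.0263 for Mef2. Library weights put 100 of the 134 genes past the threshold, DESeq2 2 and libraries A and B alone 1. List medians moved by less than the spread of libraries in 518 of the recomputed values and by more in 77. Depth limits the genes under about 1 CPM, such as Arc2 and, at 45 min, AttB and AttC. At 0 min the levels of AttB and AttC differed widely between the libraries.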
